A study of Homo sapiens with 6 samples.

Results

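The genes described here make cholesterol and fatty acids, or carry and sense sterols, and most are known targets of the transcription factors SREBP1 and SREBP2. They came from a fixed list of 34 names, chosen with earlier results of these data known. Counts over the list are therefore set beside those of all genes as description and not as a test. Where several probe sets name a gene and no other gene, the one with the highest mean over the 6 arrays stands for it. By this rule 31 of the 34 were measured, of 19775 genes in all, while FDFT1, CYP51A1 and FADS1 had none that qualified and were not analysed here.

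ARPE-19 is an established human line derived from retinal pigment epithelium, grown here in medium with 10% fetal bovine serum, which itself supplies lipoprotein cholesterol. Per the labels, 3 arrays hold RNA from cells given the solvent DMSO at 0.1%, and on the other 3 is RNA of cells exposed to 10 µM SRPIN803. Both treatments lasted 4 h. The labels do not state whether the SRPIN803 cells also received DMSO. SRPIN803 inhibits the splicing factor kinase SRPK1 and protein kinase CK2, and the study compared transcripts after this brief treatment. Whether the replicates came from separate cultures is not in the labels, so a p-value here reflects the spread among these arrays, possibly only a technical one. Because RNA was taken from whole cultures, a lower value cannot separate fewer expressing cells from less RNA per cell.

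Array medians ran from 5.25 to 5.28 on the log2 scale, and pairs of arrays correlated at 0.994 to 0.998 across probe sets. The line carried OTX2 and MITF, transcription factors of pigment epithelium, at mean log2 values of 10.39 and 10.05 in DMSO. The visual cycle genes RPE65 and LRAT and the pigment gene TYRP1 lay below the median level of all probe sets, 5.26. Of the epithelial markers, KRT8 and KRT18 were at 12.17 and 13.78 in DMSO, while KRT19, CDH1 and EPCAM lay below that level. Of the mesenchymal markers, VIM, CDH2, COL1A1 and ACTA2 were at 14.48, 11.85, 10.65 and 10.28 in DMSO. THY1 was at 5.83, and COL1A2 lay below the median level. No epithelial or mesenchymal marker was called. Of 11 measured pigment epithelium markers 1 was called, beside 5.84% of all genes. That marker was MITF, at a log2 change of 0.35 ± 0.07. Its adjusted p was 0.0312 by limma, and no fit that omitted an array called it. The other MITF probe sets were at -0.10 and 0.09. The log2 of the pigment epithelium list's summed unlogged level ran from 11.41 to 11.54 in DMSO and from 11.68 to 11.73 in SRPIN803. OTX2 and MITF make up most of that sum, as the next brightest marker, SERPINF1, was at 6.69 in DMSO. Of the 11 markers, 8 had a higher mean in SRPIN803 and 3 a lower one, where 43.9% of all genes had a lower one. The part of these shifts in the results below was not tested. All 3 photoreceptor markers measured (NRL, CRX and RCVRN) lay below the median level, as did CDH5 and VWF of endothelium and PTPRC of blood cells, while the endothelial gene PECAM1 and the T cell gene CD3E were at 6.35 and 5.55 in DMSO. None of these 8 was called (limma, 0 lower and 1 higher at an unadjusted p under 0.05).

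Cholesterol is built from acetyl-CoA through mevalonate, isoprenoid units, squalene and a series of sterols, each step with its own enzyme. SREBP2 drives the genes of this route and SREBP1 those of fatty acid synthesis. Both factors are held in the endoplasmic reticulum by SCAP and the INSIG proteins when sterols are plentiful, and are cut and released to the nucleus when sterols run low. In the pigment epithelium cholesterol is both made and taken up, and is passed to and from the photoreceptors and the blood.

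After SRPIN803, 8 of the 31 genes fell and 0 rose in limma's test at an adjusted p under 0.05 over all genes, the threshold at which a gene is said to be called. Over all 19775 genes 5.84% were called, 2.37% lower and 3.46% higher. At an unadjusted p under 0.05, 14 of the 31 were lower and 1 was higher, where 7.7% of all genes were lower and 11.8% higher. The 8 genes were HMGCS1, IDI1, SQLE, MSMO1, NSDHL, SC5D, DHCR7 and INSIG1. Of these, 7 encode enzymes of cholesterol synthesis, and INSIG1 encodes a sterol-regulated retention protein. The median log2 change was -0.13 over the 31 genes and 0.02 over all genes, and 25 of the 31 had a lower mean in SRPIN803, where 43.9% of all genes did. The treated arrays all lay below the solvent arrays in 18 of the 31 and all above in 3, against 10.4% and 15.2% of all genes. Without DMSO replicate 3, 5 of the 31 were called lower, with 0.678% of all genes called lower. Those 5 were HMGCS1, IDI1, SQLE, MSMO1 and SC5D. With a variance trend and a robust fit 13 were called lower, with 4.16% of all genes, and the genes added were HSD17B7, SREBF2, STARD4, FASN and ACLY. All 31 lie at or above the median level of genes. With the test run on those 9888 brighter genes alone, 12 of the 31 were called lower, with 8.47% of the genes tested.

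**Figure D1:**
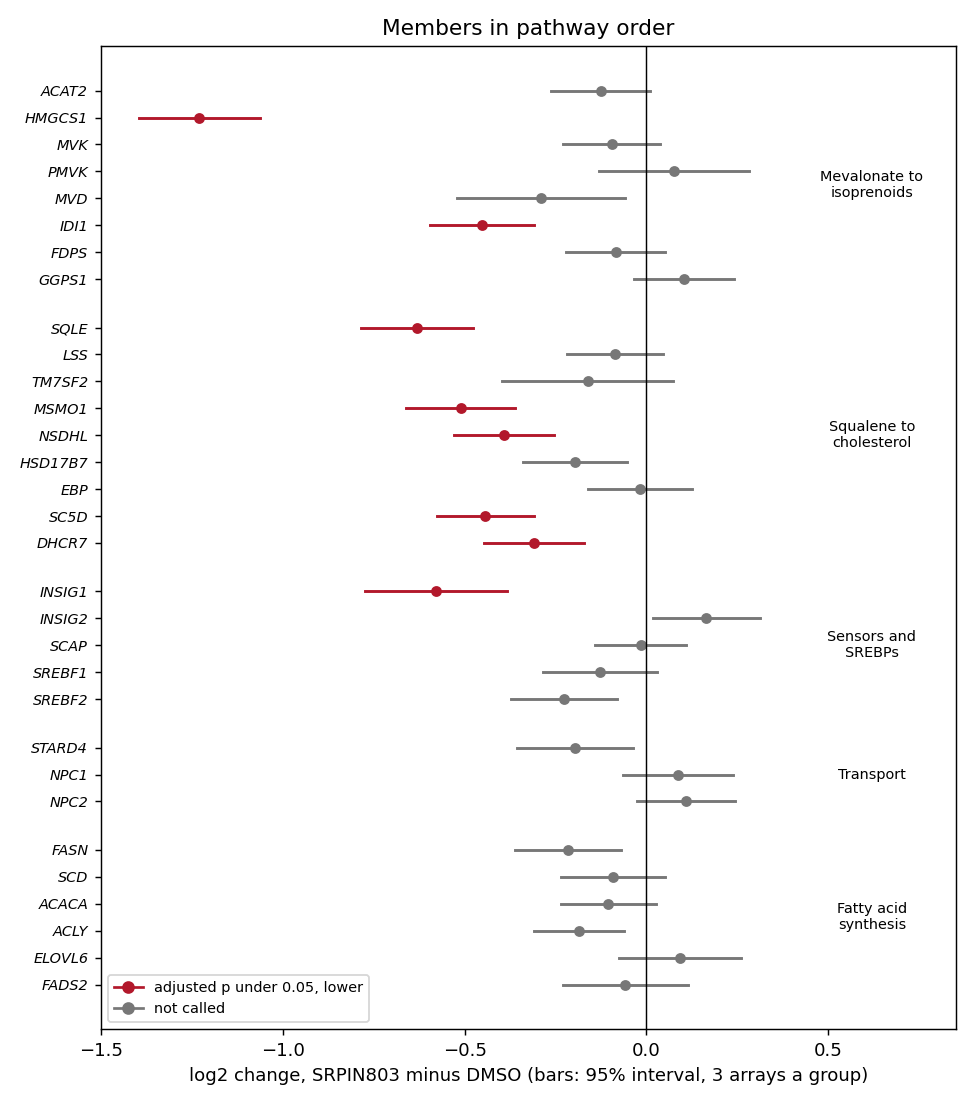
Log2 change (SRPIN803 minus DMSO, horizontal axis) of the 31 genes in pathway order, with points for the estimate and bars for the 95% interval, 3 arrays a group. The 8 called genes (red) lie between -1.23 and -0.31, with 7 of them among the enzymes from acetyl-CoA to cholesterol, while no gene of transport or fatty acid synthesis was called.

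The first segment runs from acetyl-CoA to the isoprenoid diphosphates, and 2 of its 8 genes fell while 0 rose (3 and 0 at an unadjusted p under 0.05). Its median log2 change was -0.11. HMGCS1, the cytosolic synthase that joins acetyl-CoA to acetoacetyl-CoA, had log2 values of 11.17, 11.15 and 11.26 in the DMSO arrays. In the SRPIN803 arrays it stood at 9.85, 9.99 and 10.05. The lowest DMSO array was thus more than 1 log2 unit above the highest treated array. HMGCS1 fell 2.34-fold (95% interval 2.09 to 2.63), with a log2 change of -1.23 ± 0.07 (SE) and limma's adjusted p = 0.000382, the 11th smallest p of all genes. It stayed called with any 1 array left out, at -1.27 to -1.17.

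IDI1, the isomerase that turns isopentenyl diphosphate into its reactive partner, had values of 12.72, 12.76 and 12.68 in DMSO and 12.34, 12.24 and 12.22 in SRPIN803. The groups were apart, and the change was -0.45 ± 0.06 (adjusted p = 0.00819, limma). The other steps of this segment did not pass the test. ACAT2, the thiolase of the opening step, was at -0.12 ± 0.06, and the mevalonate kinase gene MVK was at -0.10 ± 0.06. In both, each treated array lay below all solvent arrays. The phosphomevalonate kinase gene PMVK was at 0.08 ± 0.09 with overlapping groups. MVD, which decarboxylates mevalonate diphosphate, had the widest interval of the 31 apart from TM7SF2, at -0.29 (-0.52 to -0.06, adjusted p = 0.154), with 6.74, 6.53 and 6.88 in DMSO and 6.40, 6.53 and 6.34 in SRPIN803. Its groups overlapped through DMSO replicate 2 and SRPIN803 replicate 2. FDPS, which makes farnesyl diphosphate, was at -0.08 ± 0.06. GGPS1, which extends farnesyl to geranylgeranyl diphosphate for protein prenylation and so leaves the sterol route, was at 0.10 ± 0.06, with every SRPIN803 array above every DMSO array. The other GGPS1 probe set was at -0.07 with overlapping groups.

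From squalene to cholesterol, 5 of 9 genes fell, 0 rose and all 9 had lower means, though that of EBP was above 0 without DMSO replicate 1 or SRPIN803 replicate 3. The median log2 change was -0.31, and 6 were lower and 0 higher at an unadjusted p under 0.05. SQLE, the epoxidase that commits squalene to sterols, had values of 11.84, 12.02 and 11.90 in DMSO and 11.27, 11.33 and 11.27 in SRPIN803. It fell 1.55-fold (1.39 to 1.72), with a log2 change of -0.63 ± 0.07 and limma's adjusted p = 0.00378. The next enzyme, the cyclase LSS that folds epoxysqualene into lanosterol, was at -0.09 ± 0.06 and was not called, although its groups did not overlap. The other LSS probe sets were at -0.09 and -0.10 with overlapping groups. TM7SF2, a sterol reductase, was at -0.16 ± 0.10 with overlapping groups.

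Removal of the methyl groups at carbon 4 of the sterol ring takes 3 of the enzymes measured. MSMO1, the oxidase, had values of 13.12, 13.23 and 13.06 in DMSO and 12.65, 12.63 and 12.60 in SRPIN803. It fell by 0.51 ± 0.06 on the log2 scale (adjusted p = 0.00595, limma). NSDHL, the decarboxylating dehydrogenase, went from 10.05, 9.94 and 10.06 to 9.63, 9.62 and 9.62. Its change was -0.39 ± 0.06 (adjusted p = 0.0118), and the call was lost without DMSO replicate 1 or DMSO replicate 3 (adjusted p up to 0.0655). HSD17B7, the ketoreductase of the same step, was at -0.20 ± 0.06 and not called (adjusted p = 0.118), with the SRPIN803 arrays at 9.91, 9.79 and 9.91 below all DMSO arrays (10.03 to 10.09). All 3 genes were lower in each treated array than in any solvent array, by unequal amounts.

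The late steps rearrange the double bonds of the ring. EBP, the isomerase, was at -0.02 ± 0.06 with overlapping groups, and its 95% interval of -0.16 to 0.13 lies above the interval of SC5D, the desaturase that acts next. SC5D had values of 10.72, 10.79 and 10.69 in DMSO and 10.27, 10.28 and 10.33 in SRPIN803. Its change was -0.44 ± 0.06 (-0.58 to -0.31, adjusted p = 0.00695, limma). The difference between these genes was not itself tested. DHCR7, the reductase that gives cholesterol from its 7-dehydro precursor, went from 10.19, 10.24 and 10.31 to 9.96, 9.91 and 9.94. It was the smallest called change, -0.31 ± 0.06 (adjusted p = 0.0263), and none of the fits that omitted an array called it (adjusted p 0.0584 to 0.113).

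**Figure D2:**
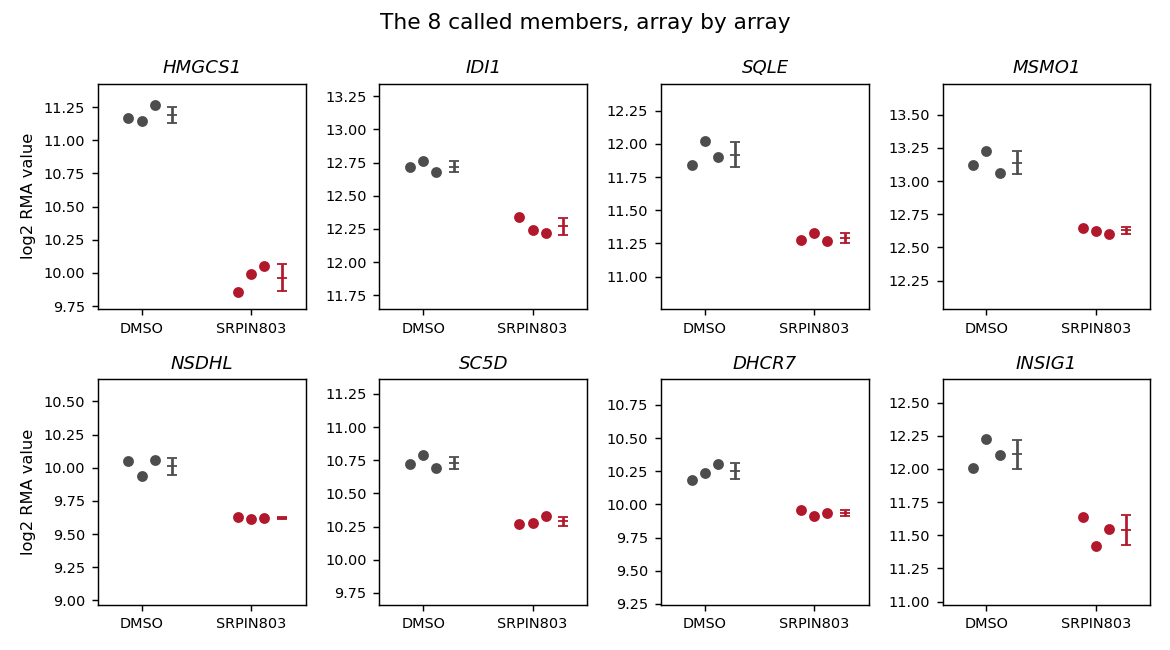
Log2 value (vertical axis, same span of 1.7 log2 units in each panel) of each called gene in the 3 DMSO arrays (grey) and the 3 SRPIN803 arrays (red), with the mean and SD beside the points. The groups are apart in all 8 panels, by the most in HMGCS1, and NSDHL varies least among the SRPIN803 arrays (9.62 to 9.63).

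Among the 5 genes that sense sterols and control the route, INSIG1 fell, 0 rose and 4 were not called (2 lower and 1 higher at an unadjusted p under 0.05). INSIG1, which holds SCAP in the endoplasmic reticulum and is itself a target of SREBP, had values of 12.01, 12.23 and 12.11 in DMSO and 11.64, 11.42 and 11.55 in SRPIN803. It fell 1.49-fold (1.31 to 1.71), with a log2 change of -0.58 ± 0.08 and limma's adjusted p = 0.0103. Without DMSO replicate 3 its adjusted p was 0.0518. INSIG2, a paralogue with the same retention role that is not a classical SREBP target, had values of 9.68, 9.82 and 9.67 in DMSO and 9.88, 9.89 and 9.90 in SRPIN803. Its change was 0.16 ± 0.06, not called (adjusted p = 0.202), with each treated array above each solvent array. The intervals of the pair do not overlap, at -0.77 to -0.38 for INSIG1 and 0.02 to 0.31 for INSIG2, and the difference between them was not tested.

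SCAP, the escort of both factors, had values of 8.71, 8.70 and 8.72 in DMSO and 8.66, 8.69 and 8.72 in SRPIN803. Its change was -0.02 ± 0.05, with a 95% interval of -0.14 to 0.11. SREBF2, the gene of SREBP2, had values of 7.95, 7.94 and 7.95 in DMSO and 7.63, 7.79 and 7.75 in SRPIN803. All treated arrays lay lower, and the change of -0.23 ± 0.06 did not pass (adjusted p = 0.0859). Of the other SREBF2 probe sets, one was at -0.06 with overlapping groups and one at -0.28 without overlap. SREBF1, the gene of SREBP1, had values of 7.52, 7.40 and 7.59 in DMSO and 7.39, 7.38 and 7.36 in SRPIN803, a change of -0.13 ± 0.07 (adjusted p = 0.361). The transcript says nothing of how much of either factor was cut and nuclear, and the SREBP1a and SREBP1c forms were not analysed separately.

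Of the 3 transport genes 0 were called (1 lower and 0 higher at an unadjusted p under 0.05, limma). STARD4, a soluble sterol carrier and SREBP target, had values of 10.30, 10.50 and 10.47 in DMSO and 10.22, 10.24 and 10.21 in SRPIN803, a change of -0.20 ± 0.07 (adjusted p = 0.165). NPC1 and NPC2, which release cholesterol from late endosomes and lysosomes, were at 0.09 ± 0.06 and 0.11 ± 0.06. The treated arrays lay above all solvent arrays for NPC2 and overlapped them for NPC1.

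Of the 6 genes of fatty acid synthesis 0 were called (limma), 5 had lower means, and 2 were lower and 0 higher at an unadjusted p under 0.05. Their median log2 change was -0.10, against -0.20 over the 17 cholesterol enzymes, and the difference between these groups was not tested. FASN, the fatty acid synthase, had values of 8.64, 8.60 and 8.71 in DMSO and 8.44, 8.49 and 8.37 in SRPIN803, a change of -0.22 ± 0.06 (adjusted p = 0.0959). ACLY, which supplies cytosolic acetyl-CoA to both routes, had values of 12.23, 12.23 and 12.26 in DMSO and 12.06, 12.07 and 12.04 in SRPIN803. Its change was -0.18 ± 0.05 (adjusted p = 0.0927). Both showed no overlap between groups in these probe sets. The other FASN probe set was at 0.01 with overlap. Those of ACLY were at -0.27 with overlap and -0.21 without. ACACA, the carboxylase that makes malonyl-CoA, was at -0.10 ± 0.06 without overlap, and its other probe set was at -0.09 with overlap. SCD, the stearoyl-CoA desaturase, was at -0.09 ± 0.06, the elongase ELOVL6 at 0.09 ± 0.07 and the desaturase FADS2 at -0.06 ± 0.07, all with overlapping groups. The other SCD probe sets were at -0.17 and -0.18 with overlap and at -0.17 without. Those of ELOVL6 were at 0.06 and -0.08 with overlap, and that of FADS2 was at -0.23 without. In the brightest probe sets the 95% intervals of the 6 genes lay between -0.36 and 0.26. A change in any of them as large as that of INSIG1 or SQLE lies outside its interval.

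With each gene set against its mean in DMSO, the median over the 31 genes was -0.15, -0.15 and -0.15 in SRPIN803 replicates 1, 2 and 3, and -0.01, -0.01 and 0.01 in the DMSO replicates. Over all genes the same medians ran from 0.02 to 0.03 in SRPIN803. Over the 9 genes from squalene to cholesterol they were -0.33, -0.33 and -0.31. Other groups were less even across the treated arrays. The 8 genes of the first segment were at -0.16, -0.13 and -0.06, the 17 cholesterol enzymes at -0.29, -0.18 and -0.16, and the 6 genes of fatty acid synthesis at -0.06, -0.14 and -0.14.

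Most genes carried several probe sets, which read different stretches of the transcript or different transcripts. The 31 genes had 68 probe sets, of which 13 were called lower and 1 higher over all 54613 probe sets (limma, adjusted p under 0.05), where 1.03% were called lower and 1.19% higher. Of the 37 that were not the brightest, 31 had a lower mean in SRPIN803, 6 were called lower and 1 higher. All 4 of SQLE were lower, at -1.24, -1.17, -0.87 and -0.63, and the brightest gave the smallest change. The one at -1.17 had 9.85, 9.74 and 9.80 in DMSO and 8.92 to 9.004 in SRPIN803 replicates 3 and 1, with replicate 2 far below them at 7.96, and was not called (adjusted p = 0.0603). All 3 of INSIG1 were called lower, at -0.84, -0.65 and -0.58. Both of NSDHL were called lower (-0.45 and -0.39). Of the pair for HMGCS1 the dimmer was at -0.59 ± 0.14 and not called (adjusted p = 0.0836). DHCR7 was not called over all probe sets (adjusted p = 0.0636), and its other probe set was at -0.22.

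The probe sets of IDI1 went in opposite directions. Both bright ones fell, by 0.45 and 0.40 on the log2 scale, and both have identifiers ending in _x_at, which marks probes that can also bind other transcripts. A dimmer one, also of that kind, had 7.25, 7.28 and 7.27 in DMSO and 7.61, 7.62 and 7.68 in SRPIN803, and rose by 0.37 ± 0.06 (adjusted p = 0.0305 over all probe sets). The one without that mark had a mean level of 5.53 and was at 0.05 ± 0.14. The fall of IDI1 therefore rests on the bright pair, and with the mean of all its probe sets IDI1 was not called.

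**Figure D3:**
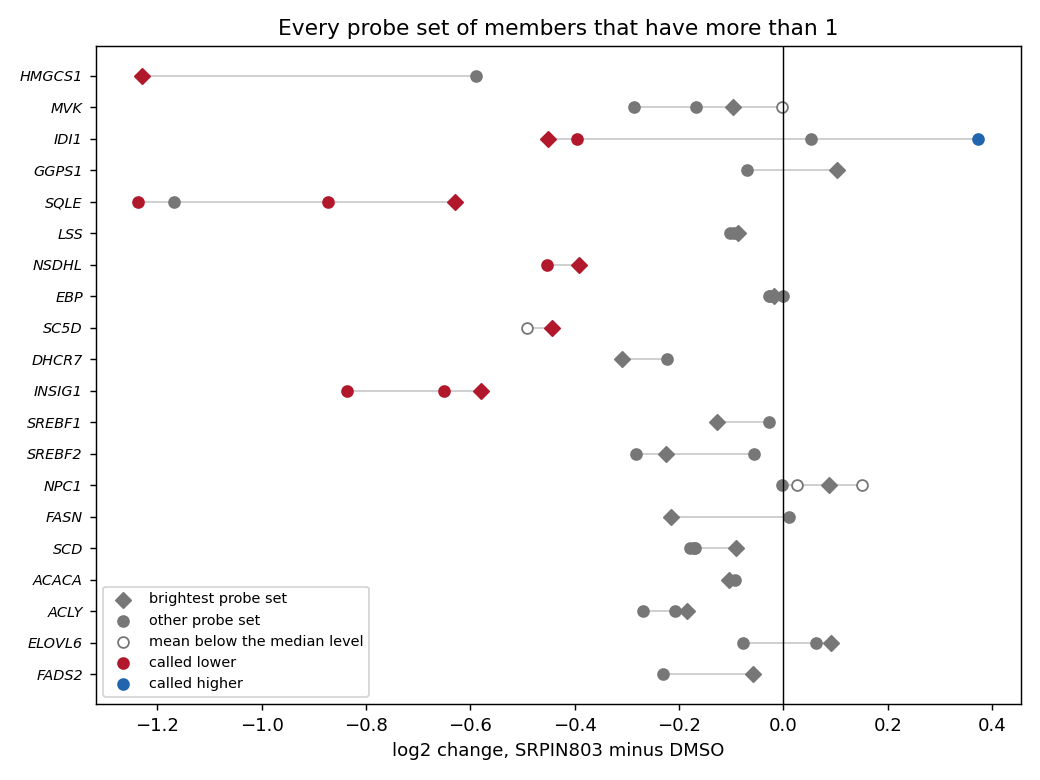
Log2 change (SRPIN803 minus DMSO, horizontal axis) of every probe set for the genes that have more than 1, with diamonds for the brightest, open symbols for means below the median level of 5.26, and red or blue for those called lower or higher over all probe sets. SQLE, INSIG1 and NSDHL lie below 0 with all their probe sets, as do other genes, among them LSS and SCD, which were not called. IDI1 spans -0.45 to 0.37.

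Because these genes are known to share control through their promoters, the 250 bases before the start site were searched in RefSeq windows (GRCh38.p14), which were found for 28 of the 31 genes and for 7 of the 8 called ones. Some genes have several windows (10 of the 28), and a gene was counted if any held the letters. Genes with more windows thus had more chances to be counted. TCACCCCAC, letters of the classical sterol regulatory element, was present on either strand in 0 of the 7 called genes and in SREBF2 alone of the 28, against 0.45% of all genes with a window. The looser TCACNCCAC, which contains it, was in 1.09% of all genes and its core CACCCCAC in 2.97%, and each was again in SREBF2 alone of the 28. CCAAT, the box bound by NF-Y, which acts beside SREBP at many sterol genes, was present in 7 of the 7 called genes and in 14 of the 21 not called. It was in 37.0% of all genes and in 32% of all windows. CACGTG, an E-box, was in INSIG1 and SC5D of the 7, in SCAP of the 21 and in 7.73% of all genes. These counts describe letters and not binding.

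Shown here are the windows of HMGCS1 (the largest fall, chr5:43313413-43313662, minus strand, the one of its 2 windows that lies further upstream), MSMO1 (the most CCAAT boxes of these, chr4:165327419-165327668, plus strand), INSIG1 (a CCAAT box and an E-box, chr7:155297628-155297877, plus strand) and SREBF2 (the sterol element letters, chr22:41832855-41833104, plus strand). Each is read 5′ to 3′ along its gene and ends just before the start site, with TCACCCCAC, CACGTG and CCAAT in capitals (ATTGG is CCAAT on the other strand).
HMGCS1: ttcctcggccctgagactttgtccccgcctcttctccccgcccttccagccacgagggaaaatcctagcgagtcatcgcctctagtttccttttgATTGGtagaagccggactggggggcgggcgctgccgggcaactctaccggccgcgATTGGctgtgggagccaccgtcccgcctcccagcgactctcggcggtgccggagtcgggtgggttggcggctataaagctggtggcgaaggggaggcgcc
MSMO1: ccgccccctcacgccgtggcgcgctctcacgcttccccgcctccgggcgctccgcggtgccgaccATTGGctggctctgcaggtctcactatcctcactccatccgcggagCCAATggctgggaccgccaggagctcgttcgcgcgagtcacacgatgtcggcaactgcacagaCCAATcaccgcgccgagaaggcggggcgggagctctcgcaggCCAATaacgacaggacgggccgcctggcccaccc
INSIG1: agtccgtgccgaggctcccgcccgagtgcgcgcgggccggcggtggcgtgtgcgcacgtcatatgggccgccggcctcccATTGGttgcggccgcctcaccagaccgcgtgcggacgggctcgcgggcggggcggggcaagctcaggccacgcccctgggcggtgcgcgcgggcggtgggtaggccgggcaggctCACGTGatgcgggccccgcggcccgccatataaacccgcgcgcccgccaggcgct
SREBF2: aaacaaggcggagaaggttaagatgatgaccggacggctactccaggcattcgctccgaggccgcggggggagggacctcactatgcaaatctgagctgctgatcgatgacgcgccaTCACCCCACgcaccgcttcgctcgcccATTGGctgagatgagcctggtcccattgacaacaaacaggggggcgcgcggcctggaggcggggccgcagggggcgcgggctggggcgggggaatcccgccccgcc

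HMGCS1 and MSMO1, called at -1.23 and -0.51, hold 2 and 4 CCAAT boxes. The E-box of INSIG1 begins 55 bases before its start. In SREBF2, whose change of -0.23 was not called, the sterol element letters begin 133 bases before the start and are followed by 1 CCAAT box.

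Other genes of these routes were described from 4 lists that do not overlap the 31, in which 3 of 56 measured genes fell and 1 rose (10 lower and 7 higher at an unadjusted p under 0.05, median -0.01). These 4 calls are 7.14% of the 56, near the 5.84% over all genes, while at an unadjusted p 17.9% were lower and 12.5% higher, beside 7.7% and 11.8% of all genes. Among 19 further genes of lipid synthesis 3 fell and 0 rose (6 lower and 2 higher at an unadjusted p under 0.05, limma). LPIN1, the phosphatidate phosphatase lipin 1 and a known SREBP target, had values of 10.89, 10.95 and 10.95 in DMSO and 10.23, 10.29 and 10.35 in SRPIN803, a fall of 0.64 ± 0.06 on the log2 scale (adjusted p = 0.00221). Its 2 other probe sets were at -0.68 and -0.63. PNPLA3, a lipid droplet hydrolase, changed by -0.82 ± 0.15 (adjusted p = 0.0225), with SRPIN803 replicate 2 at 9.14 below the other treated arrays (9.75 and 9.63), and lost the call without any 1 DMSO replicate (up to 0.0899). MID1IP1, which promotes polymerisation of acetyl-CoA carboxylase, changed by -0.43 ± 0.06 (adjusted p = 0.00645).

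The machinery that moves and cuts SREBP showed no call among 17 genes (limma, 2 lower and 1 higher at an unadjusted p under 0.05). The proteases MBTPS1 and MBTPS2, which release the factors and are named for that role after their values were seen, were at 0.01 ± 0.06 and 0.0025 ± 0.056. The genes with the smallest p there were UBE2G2, a ubiquitin-conjugating enzyme of endoplasmic reticulum degradation, at -0.18 ± 0.05 (adjusted p = 0.108), and SEC24B, a COPII coat component, at -0.15 ± 0.06 (adjusted p = 0.1995). Among 11 genes of other isoprenoid branches 0 were called (limma, 0 lower and 2 higher at an unadjusted p under 0.05), with the ubiquinone side chain genes PDSS2 and COQ2 at 0.19 ± 0.05 and 0.14 ± 0.06. Of 9 genes in a list of further sterol handling, GRAMD1C rose and 0 fell (2 lower and 2 higher at an unadjusted p under 0.05). In that list 5 genes had lower means and 4 higher. It includes LBR, a sterol reductase, at -0.27 ± 0.07 and not called (adjusted p = 0.0667, limma). GRAMD1C, which moves cholesterol from the plasma membrane to the endoplasmic reticulum, had low values of 3.91, 3.77 and 3.93 in DMSO and 4.60, 4.52 and 4.84 in SRPIN803, below the median level of 5.26. Its change was 0.79 ± 0.09 (adjusted p = 0.00533, limma). It stayed called with any 1 array left out, as did LPIN1 and MID1IP1.

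**Figure D4:**
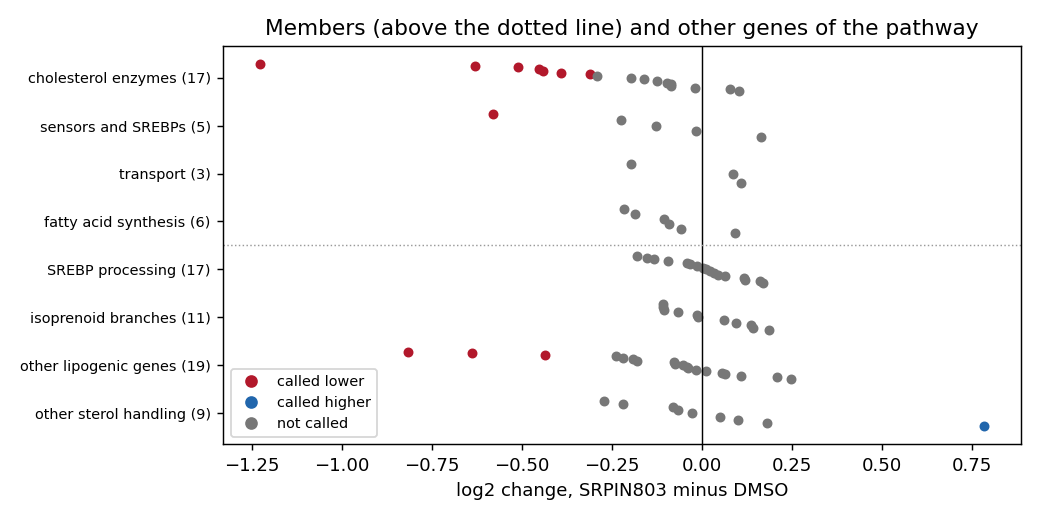
Log2 change (SRPIN803 minus DMSO, horizontal axis) of each gene, by group, with the number of genes in brackets and with red or blue for genes called lower or higher. Calls lie among the cholesterol enzymes (7 of 17), the sensors (INSIG1) and the further lipogenic genes (3 of 19), with GRAMD1C the single gene called higher.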

How the data were processed

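The 6 arrays were compared as 3 per group, with groups from the agent labels and replicate numbers from the titles. The authors deposited log2 values, 1 per probe set and array, produced by RMA according to the submitters' processing notes, with no version stated there. Normalization by RMA removes differences in total RNA between arrays, and in RMA values the changes of dim probe sets are compressed. Of 54675 probe sets, 62 were controls and 41091 name 1 gene in the platform annotation, of which 41037 matched the reference gene table by gene ID. The deposited values were tested with limma 3.58.1 in R 4.3.3 (lmFit, eBayes, group as the only term), as a two-sided test adjusted by Benjamini-Hochberg across the 19775 genes. Errors are standard errors and intervals 95%.

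Members and lists were chosen with earlier results of these data known. All members were to be named, and of each other list up to 4 called genes or the 2 with the smallest p. On simulated data with 200 of 19775 genes changed, 87.0% of changes of 0.5 and 100% of changes of 1 (log2) were recovered, 5.08% of calls were false, and 0 genes were called with none changed. The members not called changed by -0.29 to 0.16, less than the sizes simulated. These rates therefore do not say how often changes as small as theirs are found. There is no read depth on arrays, so precision is set by their number. An exact permutation test of 3 against 3 cannot go below 0.1 and was not used. Alternatives varied the replicate block, the arrays used, the filter, probe set, normalization, variance model, weights and threshold. Plots used matplotlib 3.10.9 in Python 3.11.15.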

Additional observations from a re-analysis of the deposited data

How the results depend on the processing

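The 8 genes called lower became 5 to 7 with 1 array left out, 5 at an adjusted p under 0.01 and 13 with a variance trend and robust fit. Under the other alternatives, among them 2 other normalizations, array weights and a filter on dim genes, the count was 6 to 12, and 0 genes were called higher under any alternative run. IDI1 turned to 0.053 without probe sets ending in _x_at or _s_at, since its bright probe sets are then absent. The median log2 change of the genes, -0.13, was -0.14 with the mean of all probe sets, with arrays centred on their medians or with array weights, -0.10 without _x_at and _s_at probe sets (22 genes tested), and -0.16 to -0.11 with 1 array left out. Calls over all genes (1154) were 1944 of the 9888 genes left by the filter on dim genes (19.7%, against 5.84%), 2036 with the trend, 285 and 1991 at adjusted p under 0.01 and 0.1, and 324 to 687 with 1 array left out. The 4 calls among other pathway genes became 8 with the filter, with the trend or at an adjusted p under 0.1, and 3 to 5 with 1 array left out. With the replicate number as a block 7 of the genes and 689 of all genes were called. Deviations of same-numbered arrays correlated at 0.179, -0.0608 and 0.107, and those of differently numbered arrays at -0.214 to 0.127. The labels do not state a pairing, and the numbers were not taken as pairs in the main fit. The causes of these shifts were not tested. Signal near background limits what dim probe sets can show.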
